A study of Mus musculus with 14 samples.

Results

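The uteri of Folr4-/- females given saline (n = 3 arrays) were compared with those of wild-type females given saline (n = 4 arrays), 7 of the 14 arrays in the series. They were chosen by their labels for genotype and injection, and the comparison was read across all 22519 measured non-control probe sets. All females were C57BL/6, with no substrain given in the labels, and each uterus was taken whole at day 3.5 of gestation, counted from a vaginal plug at 0.5. The saline groups of both genotypes are recorded with 2 injections, 10 and 3 days before mating, and received no folinic acid. The other 7 arrays came from Folr4-/- (n = 4) and wild-type (n = 3) females that had received 2 intraperitoneal injections of 12.5 mg/kg folinic acid, 10 and 3 days before mating. The labels do not describe how the Folr4 allele was made, whether the wild-type females were littermates, or whether arrays were from 1 female each. They call the replicates biological, and 2 wild-type saline arrays, replicates 2 and 3, share a number in their titles, as do replicates 1 and 2 of wild type under folinic acid.

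Folr4, now named Izumo1r, belongs to the folate receptor family. It encodes a membrane protein that is known from the egg, where it binds sperm Izumo1, and from regulatory T cells, and it differs from the family's folate carriers Folr1 and Folr2 in that it does not bind folate readily. In the mouse uterus shortly before implantation, progesterone from the corpus luteum halts division of the luminal epithelium and switches on epithelial genes, while macrophages, dendritic cells, plasma cells and other leukocytes populate the stroma.

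Of the 22519 measured probe sets, 1 differed between Folr4-/- and wild-type uteri under saline (limma, Benjamini-Hochberg adjusted p under 0.05), or 0.00444%, and it reported Erdr1. The next smallest adjusted p was 0.9998. At an unadjusted p under 0.05, 700 probe sets passed, or 3.11%, of which 293 (1.3%) were higher and 407 (1.81%) lower in Folr4-/- uteri, where 1126 would be expected if no probe set differed. The 3 Folr4-/- arrays lay wholly above or below the 4 wild-type arrays for 996 probe sets, or 4.42%, with 464 higher (2.06%) and 532 lower (2.36%). Over 11269 genes, each read by its brightest probe set, the median log2 difference was -0.0025, and 49.4% of genes were higher. Read this way, 317 genes had an unadjusted p under 0.05 (2.81%, with 1.28% higher and 1.54% lower), 2.22% lay wholly higher and 2.0% wholly lower. Apart from Erdr1, no gene named below passed the threshold in this fit, so the values of each describe these arrays.

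The probe set for Folr4 itself was dim and lay below the signal filter. Its signal was 11, 70 and 7 in Folr4-/- uteri, against 19, 47, 53 and 72 in wild-type uteri. The groups overlapped, with a log2 difference of -1.28 (exact permutation test, two-sided, p = 0.229, where the smallest p that 35 splits allow is 0.0571). Whether the probe set lies within the deleted part of the gene is not given, so it does not check the genotypes. Folr1 was also dim, with signals of 110, 113 and 59 in Folr4-/- uteri and 118, 98, 322 and 143 in wild-type uteri. Folr2, which marks tissue macrophages, had 245, 301 and 315 in Folr4-/- uteri and 497, 217, 466 and 586 in wild-type uteri, a log2 difference of -0.54 ± 0.42 (SE). Wild-type replicate 2 had the lowest Folr2 signal of all 7.

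All arrays shared the same trimmed mean signal, but their spike-ins and brightest probe sets were not equally bright. The cre spike-in, added at a fixed amount before hybridisation, read 77670, 95130 and 84214 on the Folr4-/- arrays, against 49660, 60333, 94472 and 50338 on the wild-type arrays. The median log2 difference was -0.10 among the dimmest 2252 probe sets and 0.06 among the brightest 2252, and both lay between -0.02 and 0.00 after quantile normalization. The actin 3' to 5' ratio, a sign of RNA quality, was 3.00, 3.01 and 2.11 on Folr4-/- arrays and 1.72, 2.21, 3.64 and 1.84 on wild-type arrays. Wild-type replicate 3 had the highest ratio and the lowest mean Spearman correlation with the other saline arrays, 0.931. Fits with the cre signal or the actin ratio as a covariate are given beside list medians below. Because whole uteri were measured, fewer cells of a type and less RNA per cell cannot be told apart.

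Erdr1, erythroid differentiation regulator 1, a gene that RefSeq annotates as a transcribed pseudogene near the end of the X chromosome (chr X, 170010526 to 170018797, GRCm38.p6), separated the genotypes completely. Its signal was 11928, 8034 and 5956 in Folr4-/- uteri, against 141, 365, 234 and 398 in wild-type uteri. The log2 difference was 4.98 ± 0.35 (SE), a 31.5-fold higher level in Folr4-/- uteri (limma, adjusted p = 8.36e-06; exact permutation test, two-sided, p = 0.0571, the smallest that 35 splits allow). Under folinic acid the same probe set read 5553 to 8834 on the 4 Folr4-/- arrays and 285 to 570 on the 3 wild-type arrays, a log2 difference of 4.24 ± 0.35. The second Erdr1 probe set, below the filter, read 125, 88 and 52 in Folr4-/- uteri under saline, also above every wild-type array.

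A probe set that the annotation table leaves without a gene also separated the genotypes, and is described after its values were seen. It read 2469, 1785 and 1344 in Folr4-/- uteri, against 31, 6, 1 and 3 in wild-type uteri, so it was bright on every Folr4-/- array and near the floor of the scale on every wild-type array. Its mean log2 signal over the 14 arrays lay below the filter, so it is not among the 22519 probe sets. With no filter its log2 difference was 8.62 ± 0.90 (limma, adjusted p = 0.000965), a size that depends on the floor of 1 set for the lowest signals. Under folinic acid it read 1399 to 2040 on the 4 Folr4-/- arrays and 2 to 22 on the 3 wild-type arrays.

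Mid1, which encodes a microtubule-associated ubiquitin ligase, is the neighbour of Erdr1 and in mice spans the boundary of the pseudoautosomal region (chr X, 169685199 to 169990798). Its measured probe set read 4075, 1351 and 3430 in Folr4-/- uteri, against 284, 281, 645 and 333 in wild-type uteri. The log2 difference was 2.88 ± 0.74, and the groups did not overlap. Under folinic acid the Folr4-/- arrays read 395, 9196, 3668 and 1711, against 376, 583 and 489 in wild-type uteri, so that Folr4-/- replicate 1 lay among the wild-type arrays there while its Erdr1 signal did not. Mid1 has 2 more probe sets, below the filter, and their groups overlapped. No Erdr1 promoter was available for display.

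Samhd1, a phosphohydrolase that breaks down deoxynucleotides, was among the 10 genes with the smallest p in the lower direction. Its probe set read 225, 195 and 178 in Folr4-/- uteri, against 582, 766, 628 and 633 in wild-type uteri. The log2 difference was -1.71 ± 0.40, and its adjusted p was 0.01998 in a fit of the 7 saline arrays alone, so the call depends on which arrays set the variance. The other 4 probe sets of Samhd1 gave log2 differences between -0.36 and -0.11, and their groups overlapped.

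Nnt, the mitochondrial transhydrogenase, whose gene carries a known deletion in the C57BL/6J substrain, read 1877, 2448 and 1619 in Folr4-/- uteri, against 3101, 3383, 3354 and 2938 in wild-type uteri. The groups were apart, with a log2 difference of -0.71 ± 0.17, and the second measured probe set of Nnt gave -0.43 ± 0.20. Wdfy1, an endosomal adaptor in Toll-like receptor signalling, read 287, 726 and 208 in Folr4-/- uteri, against 1225, 904, 731 and 1191 in wild-type uteri. Its log2 difference was -1.49 ± 0.38, the second probe set gave -1.08 and another -0.57, and Folr4-/- replicate 2 was the highest of the Folr4-/- arrays on all of them. Krtap12-1, a hair keratin-associated protein, read 91, 48 and 70 in Folr4-/- uteri, against 218, 305, 313 and 234 in wild-type uteri (log2 difference -1.97 ± 0.52). Mapk8ip1, a scaffold of the JNK pathway, read 186, 233 and 240 in Folr4-/- uteri and 406, 292, 352 and 356 in wild-type uteri (-0.68 ± 0.17). The groups of these 3 genes did not overlap on the probe sets given, while the second Mapk8ip1 probe set gave -0.08 with groups that overlapped.

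For several genes in this set only 1 probe set showed the difference. Rnf144b, a ubiquitin ligase, had -1.44 ± 0.33 on a dim probe set and 0.09 ± 0.13 on its brighter one. Eif2a, a translation initiation factor, had -0.79 ± 0.19 on one and 0.00 on the other. The remaining genes of the lower 10 were Ccr2, described below with the immune genes, Ccm2, a scaffold of endothelial junctions (-0.59 ± 0.16), and Dennd2a, an exchange factor for Rab GTPases (-1.08 ± 0.30). The other Ccm2 probe sets gave -0.16 and -0.01 and the other Dennd2a probe set -0.02, all with overlapping groups. F5, coagulation factor V, was among the lower genes with the largest separated differences (-1.71 ± 0.65) and read 86, 137 and 33 in Folr4-/- uteri, against 226, 223, 187 and 334 in wild-type uteri.

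In the higher direction, Pisd-ps3, a pseudogene of phosphatidylserine decarboxylase, read 1800, 1658 and 1131 in Folr4-/- uteri, against 647, 862, 820 and 672 in wild-type uteri, a log2 difference of 1.01 ± 0.24. Of its other 4 probe sets, 2 also separated the groups (0.78 and 0.85) and 2 did not (0.23 and -0.01). Wee1, the kinase that holds cells before mitosis, read 949, 1052 and 771 in Folr4-/- uteri and 408, 479, 498 and 403 in wild-type uteri (1.04 ± 0.27). Etnk1, ethanolamine kinase, read 1221, 1710 and 1740 in Folr4-/- uteri and 609, 1296, 648 and 719 in wild-type uteri (0.98 ± 0.26), and wild-type replicate 2 exceeded 1 Folr4-/- array. All 5 Etnk1 probe sets had a positive log2 difference, from 0.37 to 0.98. Tmem50b (0.52 ± 0.15), Ep400, a chromatin remodeller (0.56 ± 0.17), and Tpd52l1 (0.76 ± 0.24) completed the higher 10 beside the antibody genes Igha and Igkv8-30. The Ep400 groups overlapped, with wild-type replicate 2 at 2559 above Folr4-/- replicate 3 at 2316, and the other measured Ep400 probe sets gave 0.13 and -0.06.

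**Figure D1:**
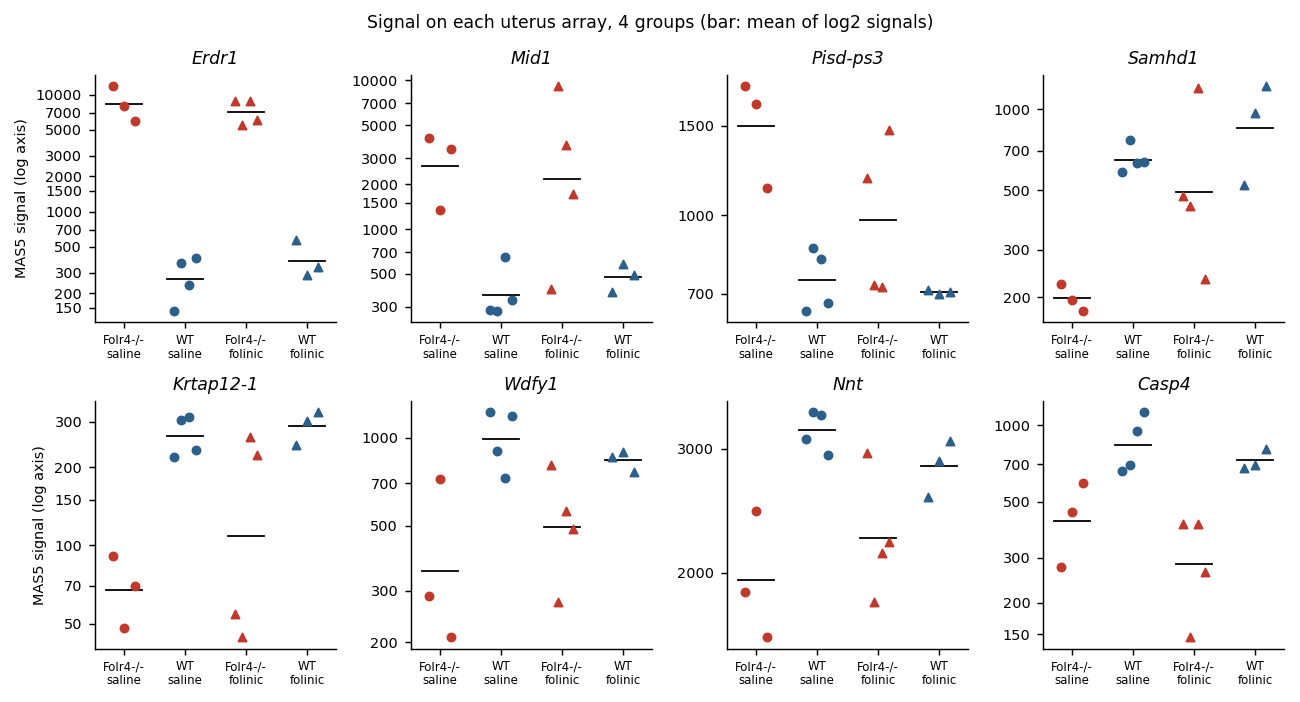
Signals of 8 genes on a log axis, for Folr4-/- and wild-type (WT) uteri under saline (circles) and folinic acid (triangles); each point is 1 array and each bar the mean of log2 signals. Erdr1 separates the genotypes under both injections, Mid1 and Samhd1 under saline only, and Casp4 lies lower in Folr4-/- uteri in both.

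Genes close to Folr4 were examined because they can be inherited together with the mutant allele. Folr4 lies on chromosome 9 (14885814 to 14903951, GRCm38.p6). Within 10 Mb, RefSeq annotates 353 genes, of which 137 were on the array and 90 were measured. Of these 90, 41 were higher and 49 lower in Folr4-/- uteri, with a median log2 difference of -0.02, and 3 had an unadjusted p under 0.05, against 2.81% of all genes read by 1 probe set each. The differences ran from -1.57 to 0.34, and the gene at -1.57 was not among those 3.

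Casp4, the caspase that senses cytosolic lipopolysaccharide, starts at -9.58 Mb from Folr4. It read 276, 455 and 592 in Folr4-/- uteri, against 661, 696, 951 and 1125 in wild-type uteri. The log2 difference was -0.99 ± 0.34, and under folinic acid it was -1.36 ± 0.34, again with no overlap. Mtmr2, a phosphoinositide phosphatase whose gene starts at -1.14 Mb, read 317, 416 and 368 in Folr4-/- uteri and 466, 465, 477 and 463 in wild-type uteri. Its log2 differences were -0.36 ± 0.16 under saline and -0.37 ± 0.16 under folinic acid, and its second probe set gave -0.35 under saline with overlapping groups. Rab3d, a GTPase of secretory granules, had 0.33 ± 0.15 under saline and -0.17 ± 0.15 under folinic acid, and its other measured probe sets gave 0.05 and 0.13 under saline.

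A pair of genes in the window was named after their values were seen. Pdgfd, a platelet-derived growth factor at -8.72 Mb, read 194, 536 and 790 in Folr4-/- uteri and 839, 887, 359 and 1084 in wild-type uteri, so the groups overlapped under saline (-0.76 ± 0.47), while the difference under folinic acid was -2.67. Yap1, the Hippo pathway co-activator, read 190, 174 and 224 on a dim probe set in Folr4-/- uteri, against 284, 302, 350 and 311 in wild-type uteri (-0.67). The bright Yap1 probe set, at 3874 to 5481 on the 7 arrays, gave 0.06 ± 0.16.

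**Figure D2:**
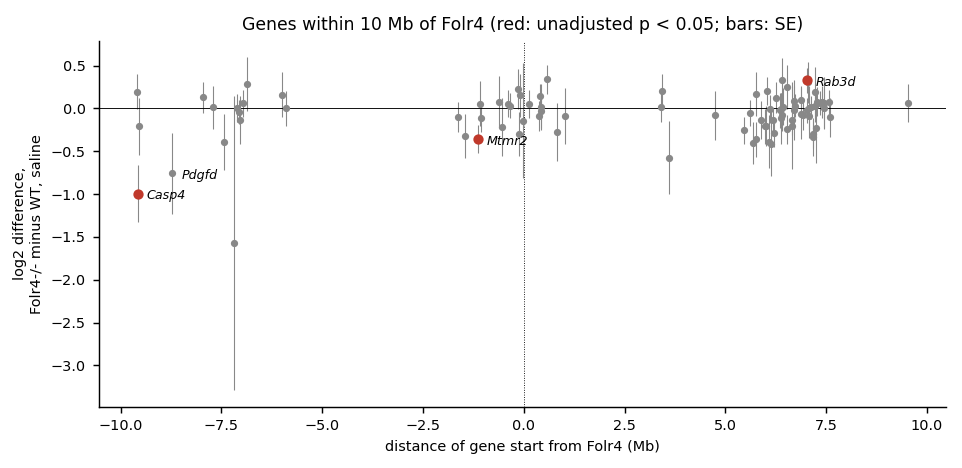
Log2 difference in signal (Folr4-/- minus wild type, saline; bars are SE) of the 90 measured genes within 10 Mb of Folr4, against distance of the gene start in Mb. The 3 red points, Casp4, Mtmr2 and Rab3d, had an unadjusted p under 0.05, and most genes lie near 0.

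Gene lists for hormone response, cell types and pathways were then read, 42 lists with 951 genes, of which 702 were measured. Of the measured genes, 28 had an unadjusted p under 0.05, or 3.99%, against 2.81% of all 11269 genes. The lists were chosen with earlier results of these data known and include Erdr1 and Mid1, so the larger share is not a finding about them. The level of a list on an array is the median over its genes of the log2 signal minus its mean over the 7 saline arrays.

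**Figure D3:**
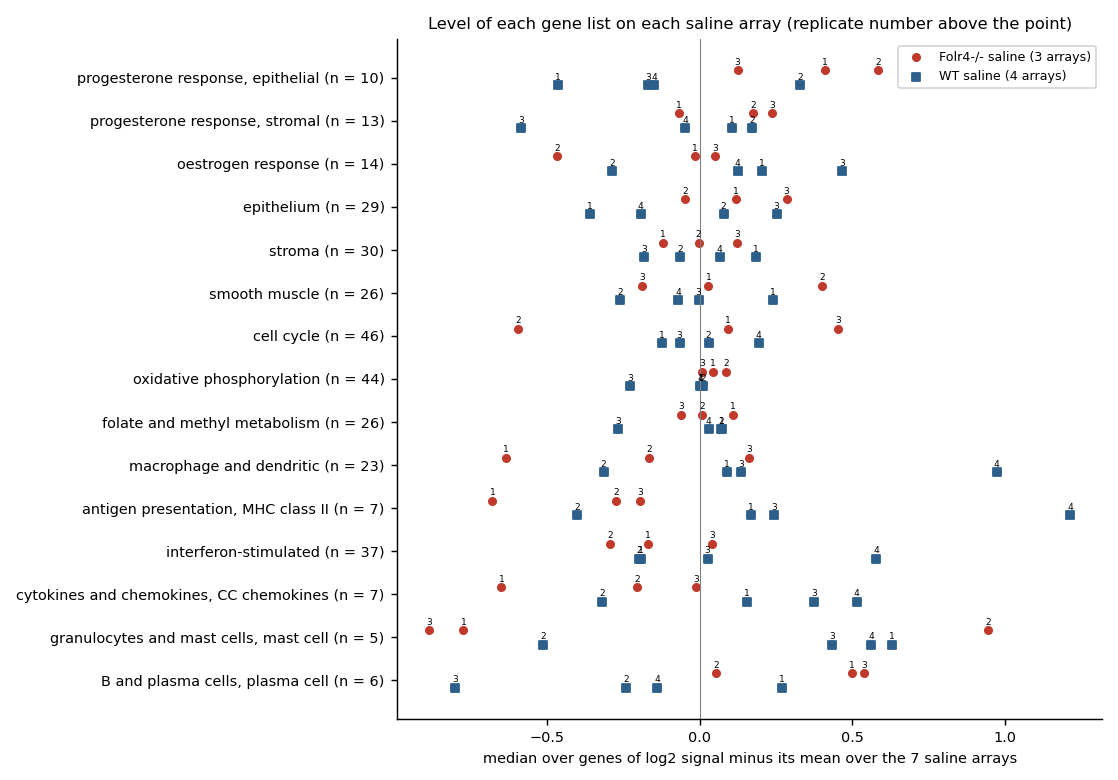
Level of 15 gene lists on each of the 3 Folr4-/- (red circles) and 4 wild-type (blue squares) saline arrays, in log2 units around the mean of the 7 arrays; numbers are replicates. In all 15 lists the genotypes overlap, and wild-type replicate 4 stands to the right in the macrophage, class II and interferon lists.

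Epithelial genes that progesterone is known to induce were mostly higher in Folr4-/- uteri. Of 12, 10 were measured, 8 were higher, and the median log2 difference was 0.60, against -0.0025 over all genes. Fst, follistatin, which binds activin, read 776, 1663 and 801 in Folr4-/- uteri, against 432, 558, 211 and 278 in wild-type uteri (1.55 ± 0.63). Errfi1, an inhibitor of EGF receptor signalling, read 6016, 11048 and 6747 in Folr4-/- uteri, against 5141, 3482, 2839 and 5606 in wild-type uteri (0.90 ± 0.37). These 2 were the list's genes whose groups were apart and whose unadjusted p was under 0.05.

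On other members wild-type replicate 2 was the highest wild-type array and exceeded at least 1 Folr4-/- array; they were chosen for this after their values were seen. Lrp2, the endocytic receptor megalin, read 4079, 4407 and 3102 in Folr4-/- uteri and 959, 3885, 1334 and 1455 in wild-type uteri. Hdc, which makes histamine, read 14056, 13036 and 9824 in Folr4-/- uteri and 4150, 12035, 8829 and 7171 in wild-type uteri. Acod1, which makes itaconate, read 4450, 4206 and 1762 in Folr4-/- uteri and 350, 3032, 1715 and 2785 in wild-type uteri, so that wild-type replicate 4 also exceeded Folr4-/- replicate 3. Leaving out single arrays put the median of the epithelial list between 0.40 and 0.78, and it was 0.43 with the cre covariate and 0.43 with the actin covariate.

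The 13 measured stromal progesterone genes had a median of 0.05, with 9 higher and 4 lower. Ihh, the epithelial signal to the stroma under progesterone, read 1035, 1149 and 707 in Folr4-/- uteri and 506, 1256, 1131 and 453 in wild-type uteri, and the groups overlapped. Hand2, its stromal counterpart that restrains epithelial growth, differed by -0.01 ± 0.24, and Hoxa10 by 0.01 ± 0.20. Pgr, the progesterone receptor, differed by 0.16 ± 0.26. Esr1, the oestrogen receptor, differed by 0.23 ± 0.12, and by 0.11 after quantile normalization, while its second probe set gave -0.02. Of 14 measured oestrogen-response genes 11 were lower, with a median of -0.24. That median was -0.029 without Folr4-/- replicate 2, -0.070 without wild-type replicate 3 and -0.13 with the cre covariate. Ltf, lactoferrin, ranged from 4052 to 16448 in Folr4-/- uteri and from 6567 to 17216 in wild-type uteri, and Muc1, a mucin of the epithelial surface, differed by -0.30 ± 0.49.

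Among genes of implantation, differences ran both ways. Pla2g4a, which releases arachidonic acid for prostaglandin synthesis, read 4434, 4643 and 6284 in Folr4-/- uteri, against 2094, 4448, 2321 and 2875 in wild-type uteri (0.85 ± 0.30). Wild-type replicate 2 again lay beside the Folr4-/- arrays. Hpgd, which breaks prostaglandins down, read 1770, 3342 and 1944 in Folr4-/- uteri and 3590, 2902, 7415 and 3279 in wild-type uteri (-0.82 ± 0.32). Msx1, a homeobox factor of uterine receptivity, overlapped between groups (0.34 ± 0.50). Lif, the cytokine that triggers implantation, was below the filter at 46 to 66 on all 7 arrays, and Foxa2, a gland factor, differed by -0.37 ± 0.35.

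Myeloid and antigen-presenting genes were mostly lower in Folr4-/- uteri. Of 23 measured macrophage and dendritic cell markers 22 were lower, with a median of -0.44, and the list's level was -0.63, -0.17 and 0.16 on the Folr4-/- arrays, against 0.09, -0.31, 0.13 and 0.97 on the wild-type arrays. Ccr2, the monocyte chemokine receptor, was the member that separated the groups downward, at 963, 699 and 878 in Folr4-/- uteri, against 2232, 1412, 1477 and 2279 in wild-type uteri (-1.10 ± 0.29). Dimmer measured Ccr2 probe sets gave -1.19 and -0.65, with groups that overlapped. The lineage-defining markers overlapped: Adgre1, the antigen F4/80, differed by -0.61 ± 0.53, Csf1r, the receptor for macrophage growth factor, by -0.37 ± 0.34, and C1qa, of complement, by -0.54 ± 0.63. Cd14, a co-receptor for lipopolysaccharide, was the 1 member that was higher, with 2751, 2967 and 2993 in Folr4-/- uteri and 1350, 2560, 1756 and 1804 in wild-type uteri (0.67 ± 0.29). The median was -0.14 without Folr4-/- replicate 1, -0.22 without wild-type replicate 4, -0.19 with the cre covariate and -0.27 with the actin covariate.

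All 7 measured MHC class II genes were lower, with a median of -0.67, which was -0.29 without wild-type replicate 4 and -0.46 with the cre covariate. H2-Oa, which tunes peptide loading, was the member whose groups were apart on its brightest probe set, at 176, 73 and 135 in Folr4-/- uteri, against 264, 250, 240 and 198 in wild-type uteri (-0.98 ± 0.34). H2-Ab1, a chain of the peptide-presenting heterodimer, read 1800, 2702 and 2971 in Folr4-/- uteri and 3798, 2592, 3007 and 7612 in wild-type uteri (-0.67 ± 0.45), and a dimmer H2-Ab1 probe set gave -1.17 with groups apart. Cd74, the invariant chain, read 4108, 5350 and 7819 in Folr4-/- uteri and 8132, 5350, 8596 and 16521 in wild-type uteri. Wild-type replicate 4 was the highest array for both.

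Interferon-stimulated genes mostly followed that array. Of 37 measured, 34 were lower in Folr4-/- uteri with a median of -0.29, and without wild-type replicate 4 the median was -0.0032, and with the cre covariate it was -0.18. Among the 4 wild-type arrays, replicate 4 was the highest for 29 of the 37, and in 10 genes the highest wild-type array was over 2-fold above the next. The GTPases that interferon gamma induces were the clearest case, and were named after their values were seen. Igtp read 1967, 2133 and 2118 in Folr4-/- uteri, against 1906, 2057, 1362 and 11206 in wild-type uteri. Iigp1 read 2707, 1995 and 3888 in Folr4-/- uteri, against 2854, 2507, 1834 and 17893 in wild-type uteri. For both, the Folr4-/- arrays lay within or above the range of the other 3 wild-type arrays. Sting1, the adaptor for cytosolic DNA sensing, was apart without such an array, at 305, 312 and 329 in Folr4-/- uteri and 600, 485, 418 and 573 in wild-type uteri (-0.71 ± 0.24), and overlapped on its second probe set (-0.30). Tlr3, a sensor of double-stranded RNA, differed by -0.39 ± 0.20. Ifit2 had the largest difference of the list, -0.73, with wild-type replicate 4 at 737 and the next wild-type array at 731. The groups of 3 of the 37 were apart, all lower, against 2.0% of all genes that lay wholly lower.

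The promoters of genes that were highest on wild-type replicate 4 are shown with the motif each family is known for, from 250 bases before to 50 bases after the gene start (RefSeq, GRCm38.p6). In the first pair capitals mark CTGATTGG, the Y box of class II promoters. In the second pair they mark GAAA repeated after a gap of 2 bases, the core of the interferon-stimulated response element. Both were searched on both strands.
H2-Aa, chr17:34287774-34288073, strand minus: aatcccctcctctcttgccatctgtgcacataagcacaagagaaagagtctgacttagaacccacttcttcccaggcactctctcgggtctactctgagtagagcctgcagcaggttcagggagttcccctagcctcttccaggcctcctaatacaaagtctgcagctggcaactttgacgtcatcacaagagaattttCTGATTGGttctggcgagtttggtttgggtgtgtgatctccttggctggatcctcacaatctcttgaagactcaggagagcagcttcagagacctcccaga
H2-Eb1, chr17:34305617-34305916, strand plus: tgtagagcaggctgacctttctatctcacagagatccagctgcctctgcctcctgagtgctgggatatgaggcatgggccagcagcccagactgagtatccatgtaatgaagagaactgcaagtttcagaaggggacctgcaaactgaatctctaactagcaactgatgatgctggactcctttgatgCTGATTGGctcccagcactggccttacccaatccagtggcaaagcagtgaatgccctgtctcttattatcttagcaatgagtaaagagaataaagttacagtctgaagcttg
Igtp, chr11:58199306-58199605, strand plus: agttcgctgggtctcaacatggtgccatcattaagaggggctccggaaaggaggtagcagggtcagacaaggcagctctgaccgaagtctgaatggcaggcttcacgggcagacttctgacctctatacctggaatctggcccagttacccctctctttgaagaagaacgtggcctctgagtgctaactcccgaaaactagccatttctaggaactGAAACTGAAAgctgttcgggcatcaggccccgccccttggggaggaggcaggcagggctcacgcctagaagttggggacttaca
Irgm2, chr11:58214727-58215026, strand plus: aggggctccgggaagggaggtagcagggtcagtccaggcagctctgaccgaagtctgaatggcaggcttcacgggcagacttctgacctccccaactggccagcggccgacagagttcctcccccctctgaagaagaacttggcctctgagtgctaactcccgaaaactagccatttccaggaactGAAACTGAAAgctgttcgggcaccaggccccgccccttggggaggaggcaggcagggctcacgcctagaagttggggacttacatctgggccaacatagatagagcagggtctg
The Y box letters begin 51 bases before the start of H2-Aa and 62 before that of H2-Eb1. Of the 7 measured class II genes 5 were in the promoter table and 3 held the Y box letters, H2-Aa, H2-Eb1 and H2-Oa, as did 4.1% of all 32851 promoters. Promoters were given for 27 of the interferon-stimulated genes, and 15 of them held the GAAA repeat, as did 3.44% of all promoters. The Igtp and Irgm2 promoters carry the same stretch around the motif. H2-Aa differed by -0.48 ± 0.34, H2-Eb1 by -0.65 ± 0.50 and Irgm2 by -0.43 ± 0.60, and in all of them wild-type replicate 4 was the highest array.

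**Figure D4:**
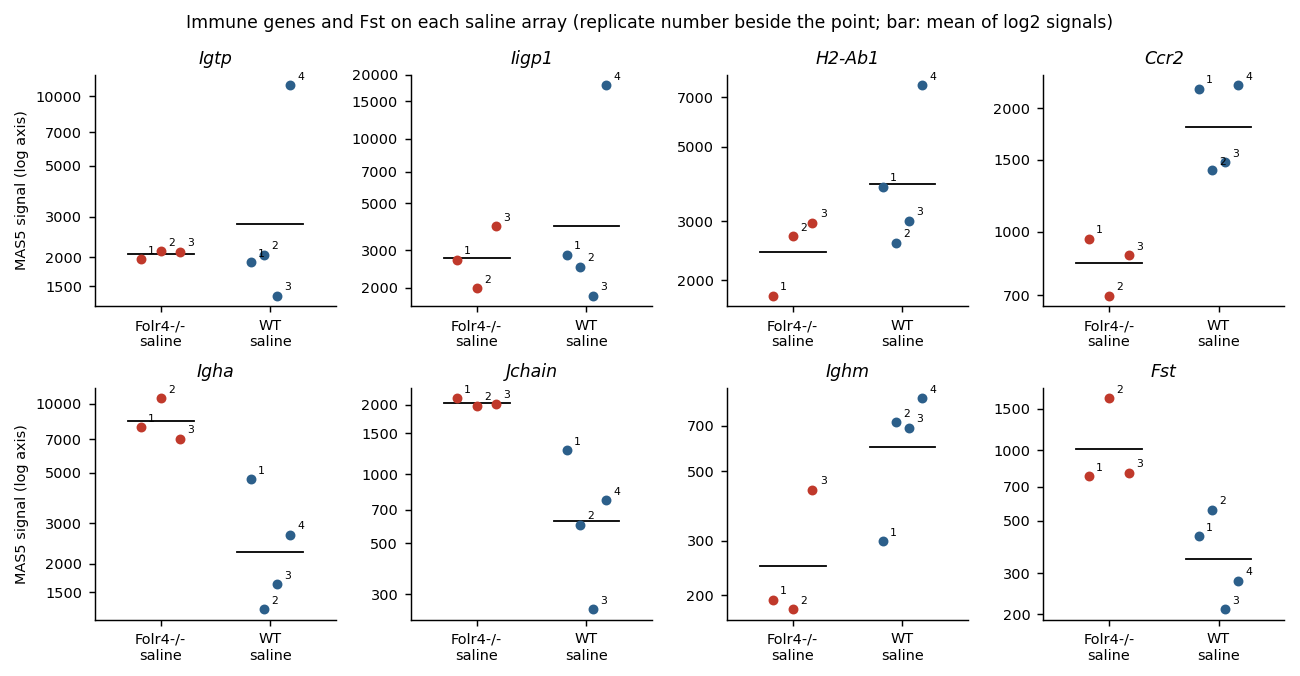
Signals (log axis) of 7 immune genes and Fst on the Folr4-/- and wild-type (WT) saline arrays; each point is 1 array with its replicate number, and bars are means of log2 signals. Wild-type replicate 4 alone is high for Igtp and Iigp1, while Igha, Jchain, Ccr2 and Fst separate the genotypes.

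Antibody genes of the IgA class were higher in Folr4-/- uteri, and IgM transcripts were mostly lower. Igha, the IgA heavy chain, read 7876, 10530 and 7032 in Folr4-/- uteri, against 4666, 1268, 1627 and 2682 in wild-type uteri (1.89 ± 0.52), and its other 2 probe sets gave 1.75 and 1.87. Jchain, which joins IgA or IgM units, read 2132, 1981 and 2018 in Folr4-/- uteri, against 1271, 603, 259 and 771 in wild-type uteri (1.71 ± 0.58). Igkv8-30, a kappa light chain segment, read 4090, 3545 and 2699 in Folr4-/- uteri, against 1630, 408, 330 and 1593 in wild-type uteri (2.14 ± 0.63). None of these groups overlapped.

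Ighm, the IgM heavy chain, read 194, 181 and 436 in Folr4-/- uteri, against 298, 718, 690 and 857 in wild-type uteri (-1.27 ± 0.56). The other 2 Ighm probe sets gave -0.95 and 0.24. Mzb1, a chaperone for antibody secretion in plasma cells, differed by 0.65 ± 0.32, and Blk, a B cell kinase, by -1.12 ± 0.65, both with overlapping groups. Of 44 immunoglobulin probe sets with 1 symbol, 7 were measured, and segments may share sequence, so a single segment's signal is uncertain. Under folinic acid Igha overlapped between genotypes, at 1914 to 7518 in Folr4-/- uteri and 1313 to 5896 in wild-type uteri.

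The mast cell list varied widely within Folr4-/- uteri. All 5 measured mast cell genes had negative differences, with a median of -0.63, which was -0.32 with the cre covariate, -0.42 without Folr4-/- replicate 3 and -1.09 without Folr4-/- replicate 2. The list's level was 0.94 on Folr4-/- replicate 2, against -0.77 and -0.89 on the other Folr4-/- arrays, and ranged from -0.51 to 0.63 on wild-type arrays. Tpsb2, a mast cell tryptase, read 137, 402 and 74 in Folr4-/- uteri and 364, 133, 439 and 456 in wild-type uteri, and Mcpt4, a chymase, had the same overlap (-0.90 ± 0.81). Kit, the stem cell factor receptor of mast cells, differed by -0.63 ± 0.38. All 7 measured CC chemokines were lower, with a median of -0.49, and the list's level was -0.65, -0.20 and -0.01 on the Folr4-/- arrays, against 0.16, -0.32, 0.37 and 0.51 on the wild-type arrays.

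The cell cycle list overlapped between the genotypes, while 1 member, Wee1, had groups that were apart. Of 46 measured cell cycle genes 24 were higher and 22 lower, with a median of 0.01, which was 0.039 with the cre covariate, 0.27 without Folr4-/- replicate 2 and -0.23 without Folr4-/- replicate 3. The list's level was 0.09, -0.60 and 0.45 on the Folr4-/- arrays, a wider spread than the -0.12 to 0.19 of the wild-type arrays. Mki67, a marker of dividing cells, read 1694, 821 and 2629 in Folr4-/- uteri and 1166, 2056, 1487 and 1582 in wild-type uteri.

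Folate and methyl metabolism showed no separation of groups. Of 26 measured genes 17 were higher and 9 lower, with a median of 0.06 that was -0.04 without wild-type replicate 3 and 0.039 with the actin covariate. Among them none had an unadjusted p under 0.05 and none had groups that were apart. Mthfd2, the mitochondrial enzyme that oxidises methylene-tetrahydrofolate, read 1344, 1656 and 576 in Folr4-/- uteri and 442, 1395, 302 and 581 in wild-type uteri. Mthfd1l, the mitochondrial formate-producing enzyme, read 448, 395 and 479 in Folr4-/- uteri and 372, 403, 272 and 351 in wild-type uteri (0.35 ± 0.19). Dnmt1, the maintenance DNA methyltransferase, differed by 0.20 ± 0.16 and Dnmt3b, a de novo one, by -0.44 ± 0.22. Gadd45a, linked to DNA demethylation and stress, read 226, 360 and 435 in Folr4-/- uteri and 499, 443, 1519 and 455 in wild-type uteri, where replicate 3 was the highest.

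Of 44 measured oxidative phosphorylation genes 37 were higher, with a median of 0.10 that was 0.03 after quantile normalization, 0.049 without wild-type replicate 3 and 0.12 with the actin covariate. Their level was 0.04, 0.09 and 0.01 on the Folr4-/- arrays and 0.00, 0.01, -0.23 and 0.00 on the wild-type arrays, so wild-type replicate 3 stood apart. Chpt1, of choline phospholipid synthesis, read 1991, 2001 and 2029 in Folr4-/- uteri and 1588, 1614, 1526 and 1652 in wild-type uteri (0.33 ± 0.14). Nme1, a nucleoside diphosphate kinase, read 7560, 2641 and 1727 in Folr4-/- uteri and 6694, 6088, 6505 and 6454 in wild-type uteri, so that Folr4-/- replicate 1 was the highest array and the other Folr4-/- arrays the lowest, while its second probe set gave -0.15.

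Markers of the tissue's main cell types were detected in both genotypes, with medians near 0. Epithelial markers had a median of 0.15 over 29 genes, which was -0.0025 without wild-type replicate 1, 0.069 without Folr4-/- replicate 3, -0.053 with the cre covariate and 0.079 with the actin covariate. Stromal markers had a median of 0.00 over 30, smooth muscle markers 0.09 over 26 (0.01 after quantile normalization) and endothelial markers 0.00 over 18. Minor tissue parts were less even between arrays. The adipocyte level was -0.79, -0.42 and 1.21 on the Folr4-/- arrays, and 0.92, -1.23, 0.96 and -0.04 on the wild-type arrays. All 5 measured mesothelium genes were lower, with a median of -0.39, and the levels of both lists overlapped between genotypes. Cldn3, an epithelial tight junction protein, read 9592, 9324 and 7166 in Folr4-/- uteri and 3014, 8997, 3290 and 4734 in wild-type uteri (0.93 ± 0.42). Grhl2, an epithelial transcription factor, was apart, at 1325, 1165 and 1187 in Folr4-/- uteri and 653, 1050, 997 and 664 in wild-type uteri (0.57 ± 0.30). Col3a1, a fibrillar collagen, differed by 0.29 ± 0.12 and by -0.03 after quantile normalization, and by -0.0023 on its other probe set. Flt1, a receptor for vascular growth factor, read 443, 461 and 489 in Folr4-/- uteri and 403, 334, 294 and 288 in wild-type uteri (0.51 ± 0.18). None of the 9 genes listed as markers of the early embryo was measured above the filter.

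The folinic acid arrays, which share no sample with the saline arrays, gave a separate view of the genotype difference. There, 1 probe set passed, again Erdr1, or 0.00444%, and 858 had an unadjusted p under 0.05, or 3.81%. Of the 700 probe sets with an unadjusted p under 0.05 under saline, 243, or 34.7%, had the same sign under folinic acid. The same share over all 22519 probe sets was not taken, so 34.7% has no background here. An unadjusted p under 0.05 in both was found for 52 probe sets, 9 in the same direction and 43 in opposite directions. How many would do so by chance was not tested. The test of the difference between the 2 genotype effects passed for 0 of 22519 probe sets (limma, adjusted p under 0.05), with 1104 at an unadjusted p under 0.05, or 4.9%.

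Under folinic acid the groups were apart for 1112 probe sets, 1.89% higher and 3.05% lower. They were apart in both comparisons in the same direction for 17 probe sets, and in opposite directions for 32. Under saline 996 were apart, or 4.42%. Some overlap in each direction arises by chance from such shares. The same-direction count, 17, was below the opposite count, 32, and neither was tested against chance. Of the 17, 14 carried 1 gene symbol: Erdr1, Pisd-ps3, Cipc and Nmt1 higher, and Mapk8ip1, Yap1, Txnrd3, Casp4, R3hcc1, Thap7, Gpr19, Zfp869, Fbxw8 and Exoc3 lower in Folr4-/- uteri. Wdfy1, at 809, 275, 562 and 488 in Folr4-/- uteri under folinic acid against 862, 897 and 767 in wild-type uteri, had -0.76 ± 0.38 and overlapped at a single array. Nnt had -0.34 ± 0.17 and Krtap12-1 -1.41 ± 0.52 there. Wee1 had 1.04 under saline and -0.64 under folinic acid, and Etnk1 0.98 and -0.68. The epithelial progesterone list had a median of 0.60 under saline and -1.20 under folinic acid.

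**Figure D5:**
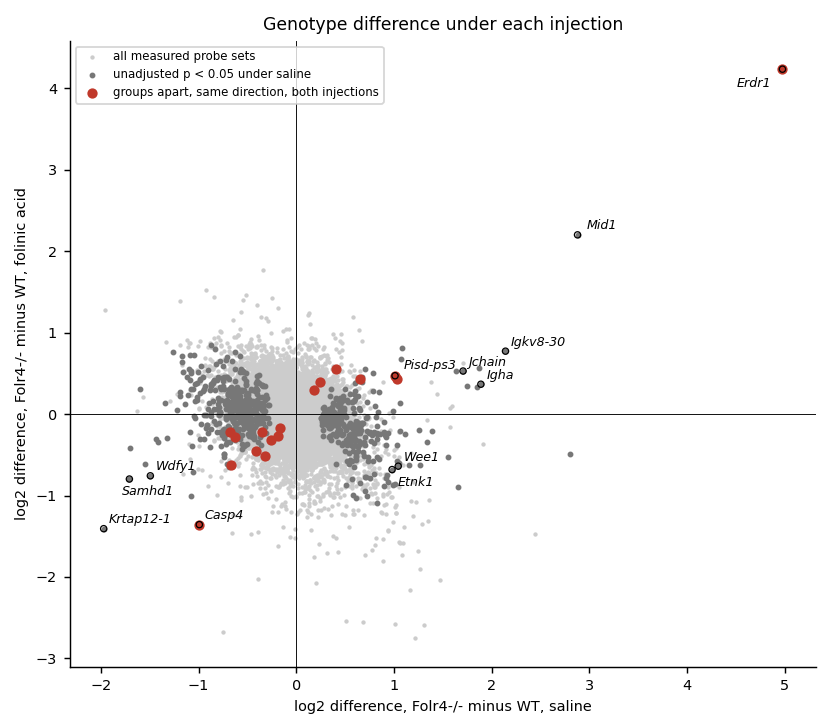
Log2 difference in signal (Folr4-/- minus wild type) of 22519 probe sets under saline (horizontal) and under folinic acid (vertical); dark grey, unadjusted p under 0.05 under saline; red, the 17 probe sets apart in the same direction in both. Erdr1 lies at 4.98 and 4.24, and Mid1, Krtap12-1 and Casp4 also share a direction, while Wee1 and Etnk1 do not.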

How the data were processed

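Total RNA of 14 whole uteri was hybridised to one-colour Affymetrix arrays after biotin labelling in the one-cycle assay, per the labels' protocols. The authors deposited a table of intensity on a linear scale, which MAS5 produced, per the submitters' processing notes. Their mean after trimming 2% at each end was 500.002 to 500.003 on every array, so no further scaling was applied. Of 45101 probe sets, 64 controls were left out. Signals under 1 were raised to 1 (0.505% of values), and log2 values were used. Probe sets with a mean log2 signal no lower than the non-control median (134 on the linear scale) were kept: 22519, of which 19116 had 1 symbol.

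The 4 group means were fitted over all 14 arrays with limma 3.58.1 (R 4.3.3), with variance trend, and the contrast was Folr4-/- minus wild type under saline. Tests were two-sided, and p was adjusted over all probe sets kept. Checks ran on simulated data. Symbols came from the platform annotation, updated by gene identifier to RefSeq GRCm38.p6, where 34736 probe sets matched; 932 had several symbols and 9160 none. Genes of a list were read by their brightest probe set, and genes named for p or size by the probe set with the smallest p. Named genes were those past the threshold, the 10 per direction with the smallest p, the 5 per direction with the largest differences among groups apart, up to 3 per list by p, and a fixed set of Folr and uterine genes; others are marked. The members and lists were chosen with earlier results of these data known. Same-numbered samples did not deviate together: the correlations of their deviations were -0.18, 0.06 and -0.19. The number of arrays limits the precision. The limma p-values set a difference against the spread within groups over all 14 arrays, partly pooled across probe sets.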

Additional observations from a re-analysis of the deposited data

Results flagged for a closer look

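There were 9 results that drew attention because 1 of the 4 wild-type saline arrays lay far from the other 3 (a gap above Dixon's critical share of the range), out of 100 genes and lists examined; chance flags about 1 in 20 such groups. Wild-type replicate 3 was the array in 5 of them. It was the highest for Dennd2a (347, against 212 to 220 on the other wild-type arrays) and Gadd45a (1519, against 443 to 499), and the lowest for Hand2 (1767, against 2986 to 3124). It was also the lowest for the oxidative phosphorylation list, at -0.23, where the other wild-type arrays lay between 0.0022 and 0.012, and for the folate and methyl metabolism list, at -0.27, where they lay between 0.029 and 0.072. This array had the highest actin 3' to 5' ratio, 3.64. With that ratio as a covariate the median difference was 0.121 for the oxidative phosphorylation list, against 0.0985 without it, and 0.039 for the folate and methyl metabolism list, against 0.057 without it.

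Wild-type replicate 4 was the highest for Irgm2 (5828, against 1026 to 1167) and Gbp2 (6888, against 1079 to 1459). Wild-type replicate 2 was the highest for Ep400 (2559, against 1680 to 1736) and Tpd52l1 (1131, against 716 to 772).

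The second Erdr1 probe set, which lay below the signal filter, averaged 88.4 in Folr4-/- uteri under saline, and each of those 3 arrays was above all 4 wild-type arrays. It was fitted only with no filter, where it was not among the 3 probe sets past the threshold. The probe set without a gene, also below the filter, averaged 1866 in Folr4-/- uteri under saline, and its 3 arrays were likewise above all 4 wild-type arrays.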

How the results depend on the processing

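The comparison was recomputed under 23 alternatives, 2 of them, the Gapdh ratio and the cre spike-in as covariates, added after the data were seen. Erdr1 remained past the threshold in each, with a log2 difference of 4.68 to 5.22 when single arrays were left out. The count of probe sets past the threshold was 1 except for 3 with no filter and 2 in the fit of the 7 saline arrays alone, where Samhd1 joined (adjusted p = 0.01998). With no filter, Neurl3 (log2 difference -3.74, adjusted p = 0.00786) and the probe set without a gene (8.62, adjusted p = 0.000965) joined, both below the filter on mean log2 signal. Neurl3 was dim, at 8, 6 and 19 in Folr4-/- uteri under saline, against 157, 118, 159 and 108 in wild-type uteri. Its log2 difference under folinic acid was 0.61 ± 0.47, in the other direction. The count at an unadjusted p under 0.05 was 1876 with array weights, 1244 with the cre covariate, 2130 with no filter, 455 in the brightest 35% and 314 with 1 probe set per gene, and ran from 468 (without wild-type replicate 1) to 1121 (without wild-type replicate 2) when single arrays were left out. Probe sets whose groups were apart numbered 475 with 1 probe set per gene, 2321 with no filter and 2269 with the 2 arrays of a shared title number averaged, and 1394 to 3278 when single arrays were left out, since fewer arrays separate more easily. With the replicate number as a block, 1 probe sets passed and 616 had an unadjusted p under 0.05; the samples share only a number.

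Of 276 recomputed list medians, 274 stayed within 1 SD of the arrays. That SD can be as large as the median itself, so a difference that is lost can still count as within it. The interferon median of -0.29 counted so at -0.0032 without wild-type replicate 4. The exceptions were the genes within 10 Mb of Folr4 under median centring (0.073, where all probe sets shifted by 0.09) and the whole progesterone list (0.32), which was 0.0886 without wild-type replicate 3. Without wild-type replicate 2 the progesterone median was 0.51, within 1 SD. The sign of a list median turned in 10 of the 276. When single arrays were left out, the cell cycle median ran from -0.23 to 0.27 and the folate and methyl metabolism median from -0.04 to 0.13. Among 40 named genes with an unadjusted p under 0.05, beside Erdr1, the sign turned for 1, Col3a1, under quantile normalization. It turned for 11 of the 44 other named genes in at least 1 alternative, among them Hand2 and Mki67 in 9 each, and Igtp, Iigp1, Irgm2 and Gbp2 without wild-type replicate 4. Signal over background limits the dim probe sets, Folr4 and Folr1 among them.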
